A study of Homo sapiens with 6 samples.

Results

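The peaks described here are the p63 binding regions that lie on human chromosomes 17, 19 and 22 in ME-180, a squamous cervical carcinoma cell line. They were selected by chromosome alone, a rule set with earlier results of these data known. Of the 6466 peaks in the deposited list, 977 met that rule: 346 on chromosome 17, 470 on chromosome 19 and 161 on chromosome 22. The list came from 1 chromatin immunoprecipitation library made with an antibody to p63 and belongs with 1 input library made without antibody, both from ME-180 cells at passages 13 to 15 for which the labels give no genotype or treatment. The other 4 libraries of the study are RNA of ME-180 cells (control and p63 knockdown) and of SiHa cells (vector and p63 overexpression), and no peak list from those cells was used here. Every peak value below therefore describes 1 library without a replicate, and the differences between chromosomes carry no test.

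p63, the product of TP63, is a relative of p53 that binds DNA as a tetramer, regulates transcription and maintains the basal layer of stratified epithelia such as the squamous lining of the cervix. It is known to bind many sites far from gene starts, often in enhancers of epithelial genes. Chromosomes 17, 19 and 22 are known as gene-rich human chromosomes. Chromosome 22 is acrocentric, so its assembled sequence is almost entirely long arm, and coordinates on all 3 chromosomes run from the end of the short arm. Gene density was not measured here, because an annotation of the build named for these files (hg19) was not used, and for the same reason no gene and no sequence is given for any peak.

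In the RNA library of ME-180 control cells, squamous markers were present: the most abundant TP63 transcript, which encodes the antibody's target, had 5619 counts, and the basal keratins KRT5, KRT14 and KRT17 had 679522, 46445 and 35001. COL1A1, a fibroblast collagen, had 1373 counts. EPCAM, CDH1, VIM, PTPRC and PECAM1 have no row in the table used here and could not be read.

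The first comparison asks how densely p63 peaks lie on each of the 3 chromosomes. Chromosome 19 carried 7.97 peaks per Mb, chromosome 22 carried 4.61 and chromosome 17 carried 4.29, where the length is the span from the first to the last peak of the chromosome. These were the 3 highest values among the 24 chromosomes of the list, and the next in order were chromosome 11 at 3.04, chromosome 20 at 3.01 and chromosome 16 at 2.89. The 3 chromosomes were chosen with earlier results of these data known, so their rank is a description only. The 21 remaining chromosomes together held 1.98 peaks per Mb, so the density was 4.03 times that value on chromosome 19, 2.33 times on chromosome 22 and 2.17 times on chromosome 17. Chromosomes 17 and 22 were close to each other, with a ratio of 1.08, whereas chromosome 19 stood 1.73 times above chromosome 22 and 1.86 times above chromosome 17. The span began at position 16288400 on chromosome 22 and at 30800 on chromosome 17, and whole chromosome lengths were not used. The order of chromosomes 22 and 17 therefore holds for this span only. The 3 chromosomes together made up 5.91% of the span covered by the list and 15.1% of its peaks.

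**Figure D1:**
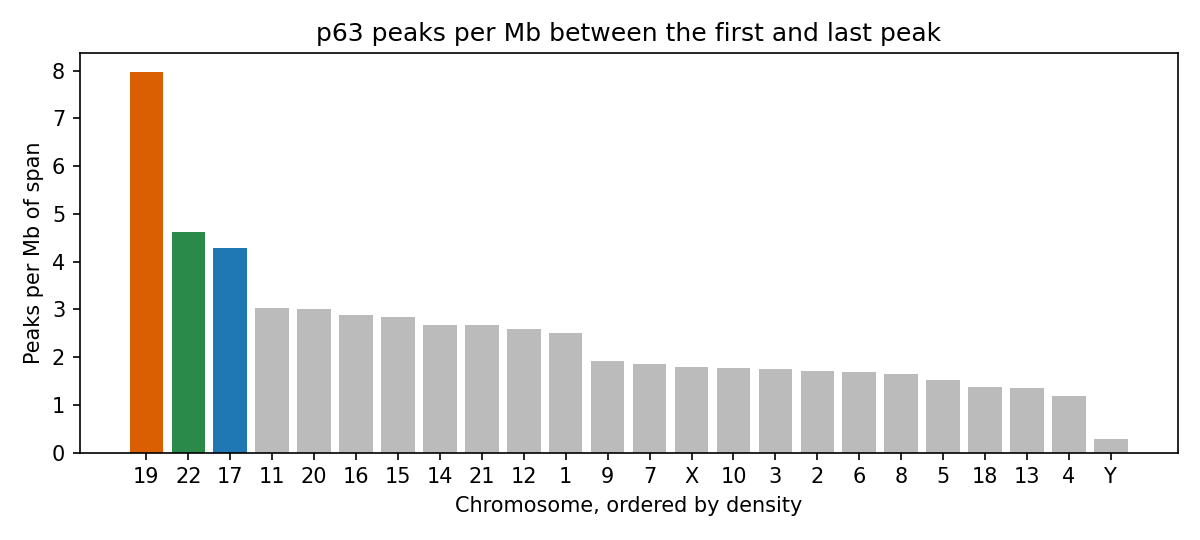
p63 peaks per Mb of span (vertical axis, bars from 0) for each of the 24 chromosomes, ordered by density (horizontal axis); chromosomes 19, 22 and 17 are coloured and the others grey. Chromosome 19 stands at 7.97 peaks per Mb, chromosomes 22 and 17 at 4.61 and 4.29, and the next chromosome at 3.04.

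In absolute numbers, only chromosome 1, with 624 peaks, had more than the 470 of chromosome 19, although the span of chromosome 19 was 58.9 Mb against 249 Mb. Chromosome 17 ranked 6 by number of peaks over a span of 80.7 Mb. Chromosome 22 ranked 20, with its 161 peaks in 34.9 Mb. Its place near the top of the order is thus one of density and not of number.

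Density along each chromosome was followed first on either side of the longest gap between neighbouring peaks. On chromosome 17 this gap was 4.43 Mb long and lay between the peaks chr17:21187800-21187899 and chr17:25621700-25621899. The low-coordinate side held 100 peaks at 4.73 per Mb and the high-coordinate side 246 at 4.47 per Mb, a ratio of high to low of 0.945. With only peaks of at least the median width (250 bp) the ratio became 1.13, so neither side can be called the denser. On chromosome 19 the gap was 5.75 Mb long, between chr19:24270750-24270949 and chr19:30017350-30017599. Its sides held 207 peaks at 8.57 per Mb and 263 peaks at 9.06 per Mb, a ratio of 1.06. Both sides of chromosome 19 were thus nearly as dense as each other, and each was above the mean density of chromosomes 17 and 22.

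Chromosome 22 was divided differently. Its longest gap, 2.15 Mb between chr22:46731750-46731999 and chr22:48885250-48885549, lay near the end of the chromosome, and a second of 2.06 Mb followed the peak chr22:27018250-27018449. Beyond the longest gap were 18 peaks in 2.31 Mb, or 7.79 per Mb, against 143 peaks at 4.70 per Mb before it. The first of these 18 peaks stood alone, 1.33 Mb from the next, and the other 17 lay between 50218000 and the last peak, chr22:51194350-51194949, which at 600 bp was also the widest of the chromosome. A dense end was not particular to chromosome 22. Its last 2 Mb of span held 17 peaks against its mean of 9.22 per 2 Mb. The same values were 16 and 8.58 on chromosome 17, 27 and 3.30 on chromosome 8, and 22 and 6.02 on chromosome 20. On chromosome 19 they were 15 and 15.9.

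In steps of 10 Mb, chromosome 17 alternated between dense and sparse stretches. It had 70 peaks in the first 10 Mb, 26 and 27 in the next stretches, 55 between 30 and 40 Mb, 69 between 40 and 50 Mb, then 22 and 20, and 49 between 70 and 80 Mb. The sparse stretches include 2 long gaps beside the longest one, of 4.06 Mb after chr17:48913350-48913599 and of 3.09 Mb after chr17:68070500-68070699. Chromosome 19 had 88 and 113 peaks in its first stretches of 10 Mb, 6 between 20 and 30 Mb, then 74 and 101, and 88 in the stretch from 50 Mb to its last peak. Apart from the 20 to 30 Mb stretch, none of these fell below 74, which is above the 70 of the richest stretch on chromosome 17. Chromosome 22 had 43 peaks between 20 and 30 Mb, 49 between 30 and 40 Mb and 33 between 40 and 50 Mb.

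Windows of 1 Mb, laid end to end from the start of each chromosome and counted by peak midpoint, gave the finer picture. The median window held 8 peaks on chromosome 19, 3.5 on chromosome 22 and 3 on chromosome 17. Windows without a peak numbered 7 of 60 on chromosome 19, 3 of 36 on chromosome 22 and 11 of 81 on chromosome 17, together 11.9%, against 34.5% of the 2796 windows on the other chromosomes. Of the 7 empty windows on chromosome 19, 5 lay in a row between 25 and 30 Mb, inside its longest gap. The variance of the window counts was 3.08, 3.45 and 3.17 times their mean on chromosomes 17, 19 and 22. Of the 21 other chromosomes, 14 had a lower value than all 3 and 2 lay between. The other 5 had a higher one, from 3.66 on chromosome 21 to 4.87 on chromosome 16.

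**Figure D2:**
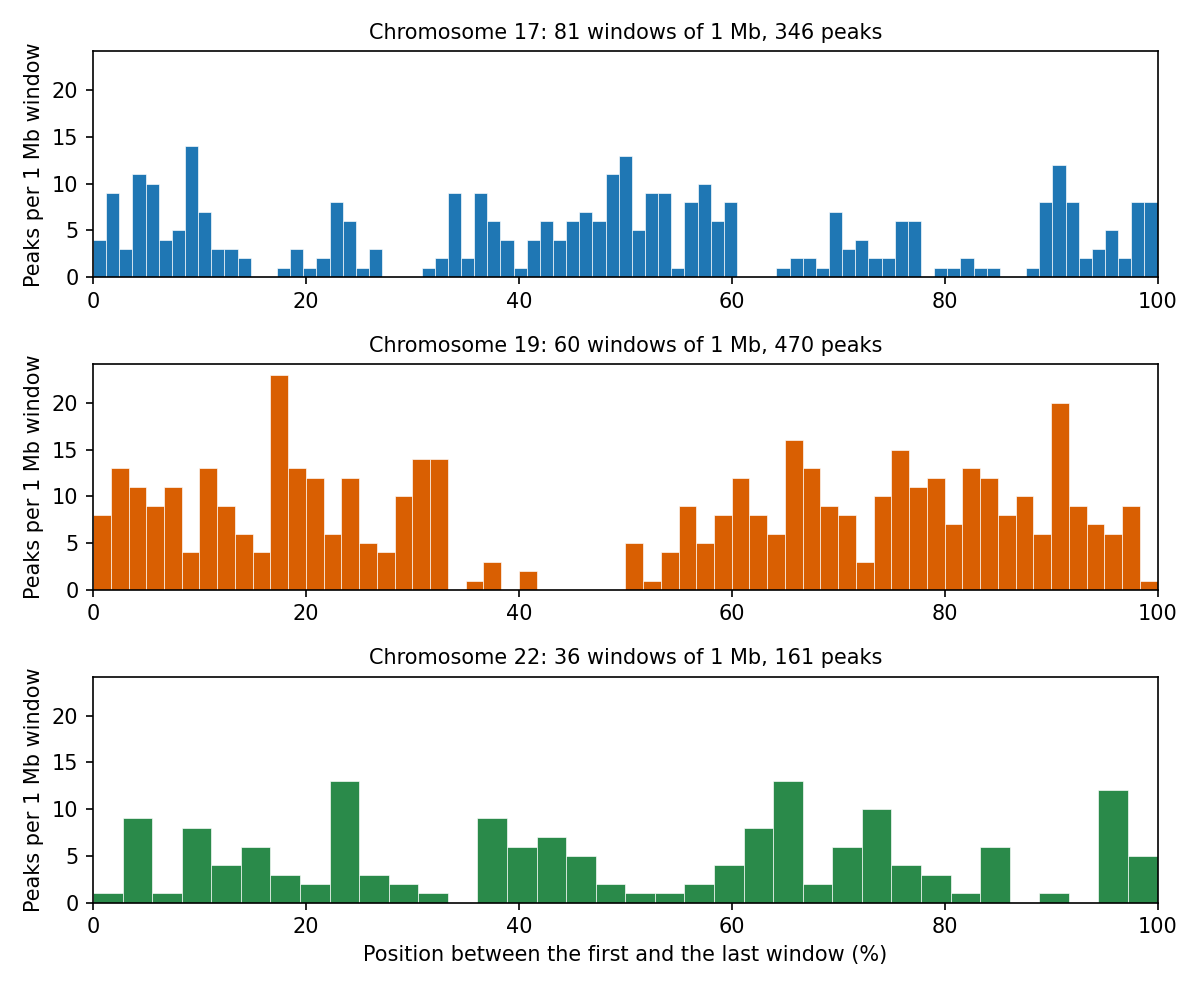
Number of p63 peaks in each 1 Mb window (vertical axis) against the window's position from the first to the last window of the chromosome in percent (horizontal axis), for chromosomes 17, 19 and 22. Chromosome 19 has a median of 8 peaks per window, an empty stretch between its sides and its highest windows at 23 and 20, while chromosomes 17 and 22 have separate dense windows of up to 14 and 13.

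Windows with 10 or more peaks were taken as dense. There were 22 on chromosome 19, 7 on chromosome 17 and 4 on chromosome 22, which is 33 of 177 windows (18.6%), against 60 of 2796 (2.15%) on the other chromosomes. Dense windows held 61.7% of the peaks of chromosome 19, 23.4% of those of chromosome 17 and 29.8% of those of chromosome 22. On the other chromosomes this share ran from 0%, as on chromosome 4, to 30.4% on chromosome 16. Only chromosome 19 thus lay above that range. The cut of 10 was the same for every chromosome, while the mean window held 7.83 peaks on chromosome 19, 2.86 on chromosome 16 and 1.19 on chromosome 4. The numbers and shares of dense windows are therefore not separate from the density given above. The high density of chromosome 19 was spread over many windows: without its 3 densest windows it still had 7.35 peaks per Mb, and the 3 chromosomes still held the first 3 places when the same was done for every chromosome, with chromosome 17 at 3.95 and chromosome 22 at 3.86. This check was added after the windows had been seen.

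The densest window of the 3 chromosomes lay on chromosome 19 between 10 and 11 Mb, with 23 peaks, second in the whole list to 1 window of chromosome 15 with 27. Its peaks ran from chr19:10047100-10047349 to chr19:10982800-10982949 with a median gap of 31375 bp and none above 133650 bp. With peaks no more than 10 kb apart joined, they formed 15 separate sites, and 14 of the 23 peaks stood in joined groups. Its 2 groups of 3 were the peaks chr19:10380900-10381049, chr19:10381350-10381599 and chr19:10382250-10382549, and the peaks that start at 10217600, 10218400 and 10220350. The peaks in the window were 150 to 400 bp wide, with the same median of 250 bp as the chromosome.

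The next densest window of chromosome 19, between 54 and 55 Mb, held 20 peaks, of which 11 stood in joined groups, in 12 separate sites. Its median gap was 17950 bp. The third, between 39 and 40 Mb, held 16 peaks in 12 sites. Windows with 14 or 15 peaks followed between 45 and 46 Mb and between 18 and 20 Mb. In contrast, the 10 peaks between 44 and 45 Mb formed 10 separate sites, with gaps from 22800 to 236150 bp. The 13 peaks between 49 and 50 Mb had gaps from 19550 to 332800 bp within the window, and the last of them, chr19:49998900-49999149, belonged to a run of 3 that continued past the window's edge. Dense windows thus differed in how many of their peaks stood in close groups.

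On chromosome 17 the densest window, between 7 and 8 Mb, held 14 peaks in 9 separate sites, 8 of them in joined groups. The first 8 of the 14 lay within 44750 bp, from chr17:7121400-7121599 to chr17:7165950-7166149, with gaps from 150 to 11750 bp. The remaining 6 were spread from 7232200 to 7793199. The window between 40 and 41 Mb had 13 peaks in 10 sites, and its neighbour between 39 and 40 Mb had 11 in 10 sites. The latter 11 all lay between 39142650 and 39553699, so the rest of that window was empty. The window between 73 and 74 Mb had 12 peaks in 10 sites, with a median gap of 74150 bp.

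Chromosome 22 had 2 windows with 13 peaks, between 24 and 25 Mb and between 39 and 40 Mb. In the first, 4 peaks lay within 15300 bp, from chr22:24114250-24114499 to chr22:24129450-24129549, and peaks of 500 bp at 24822950 and 24951850 were the widest. In the second, the median gap was 55700 bp and the 13 peaks formed 12 separate sites. The window between 50 and 51 Mb held 12 peaks in 9 sites, and that between 42 and 43 Mb held 10 peaks in 7 sites with a median gap of 19700 bp.

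The position of the densest window depended in part on how windows were laid. Shifted by 500 kb, the densest window of chromosome 19 was that from 38.5 to 39.5 Mb, with 17 peaks, and that of chromosome 22 was from 50.5 to 51.5 Mb, with 12. On chromosome 17, the shifted window from 6.5 to 7.5 Mb again held 14 peaks and overlapped the first. When joined peaks counted once, 4 windows of chromosome 17 tied at 10 sites, those that start at 3, 39, 40 and 73 Mb, and the window from 7 to 8 Mb fell below them with 9. Chromosome 19 kept the window from 10 to 11 Mb, with 15 sites. On chromosome 22, of the windows tied at 13 peaks, that from 39 to 40 Mb came first with 12 sites.

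Spacing was measured from the end of one peak to the start of the next. The median gap was 62000 bp on chromosome 19 (quartiles 19550 and 136150), 96750 bp on chromosome 17 (30200 and 237200) and 112350 bp on chromosome 22 (31850 and 256712.5). On the other chromosomes it was 175450 bp (48775 and 524062.5). The median of chromosome 19 was thus the shortest of the list, 2.83 times below that of the other chromosomes, and chromosomes 17 and 22 came next after chromosome 16. Chromosome 22 had more peaks per Mb than chromosome 17 but the longer median gap. Its mean gap, 217919 bp, was below the 233616 bp of chromosome 17. The longest gap was 4.43 Mb on chromosome 17 and 2.15 Mb on chromosome 22, but gaps over 1 Mb took the larger share on chromosome 22. The mean gap is the part of the span outside peaks divided by the number of gaps, so its order follows that of density. Why the medians with all peaks stood in the other order was not tested.

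Gaps fell into a close group of at most 1 kb, a thin range from 1 to 10 kb, and a broad range above it. Gaps of at most 1 kb made up 8.41% of the gaps on chromosome 17 (29 of 345, 95% Wilson interval 5.92 to 11.8%), 11.7% on chromosome 19 (55 of 469, 9.12 to 14.95%) and 11.9% on chromosome 22 (19 of 160, 7.74 to 17.8%). On the other chromosomes the share was 10.2% (559 of 5468, 9.45 to 11.1%), a value inside all 3 intervals, which cover counting error only. The share of peaks with a close neighbour on their right thus ran from 8.41 to 11.9%, beside 10.2% elsewhere, although density differed up to 4.03 times. No difference in this share was tested. Counted per Mb, close gaps did follow density, at 0.933 on chromosome 19, 0.544 on chromosome 22, 0.359 on chromosome 17 and 0.201 on the other chromosomes.

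Gaps over 10 and up to 100 kb took a larger share than elsewhere on all 3 chromosomes. They were 48.4% of gaps on chromosome 19, 35.9% on chromosome 17 and 31.9% on chromosome 22, against 23.1% on the other chromosomes. Gaps over 1 Mb took a smaller share, with 4 of 469 (0.853%) on chromosome 19, 10 of 345 (2.90%) on chromosome 17 and 7 of 160 (4.38%) on chromosome 22, against 13.8% elsewhere. The mean gap is shorter where more peaks lie per Mb, so these shares are not separate from the density given above. Chromosome 22 had few gaps from 1 to 10 kb, 3 of 160, beside 20 on chromosome 17 and 32 on chromosome 19.

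**Figure D3:**
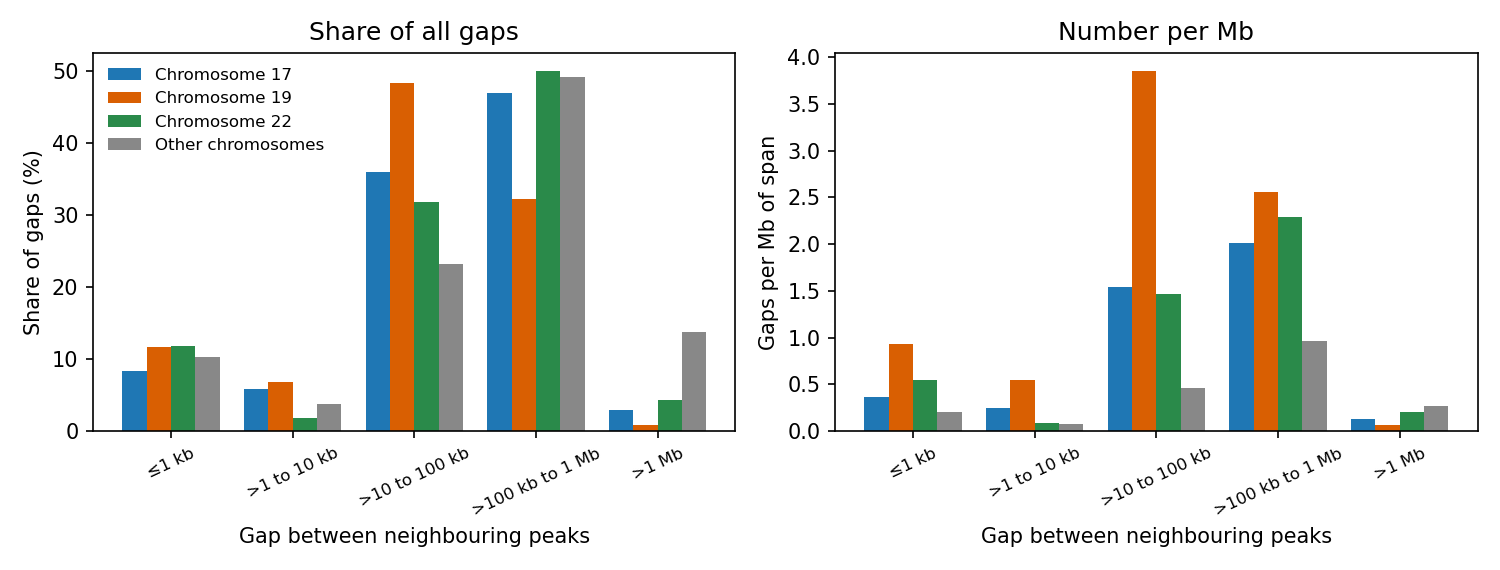
Gaps between neighbouring p63 peaks by length (horizontal axes), as a share of all gaps in percent (left) and per Mb of span (right), for chromosomes 17, 19 and 22 and the other chromosomes together. Gaps of at most 1 kb take between 8.41% and 11.9% in all 4 sets, whereas gaps over 10 to 100 kb reach 48.4% on chromosome 19 against 23.1% elsewhere.

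Peaks joined by gaps of at most 10 kb were counted as runs. Runs held 157 of the 470 peaks on chromosome 19 (33.4%, 95% Wilson interval 29.3 to 37.8%), 89 of 346 on chromosome 17 (25.7%, 21.4 to 30.6%) and 44 of 161 on chromosome 22 (27.3%, 21.0 to 34.7%). The share was 26.3% on the other chromosomes (25.2 to 27.5%). The interval of chromosome 19 lay above that of the other chromosomes as a set, and those of chromosomes 17 and 22 included it. By single chromosome, however, chromosome 19 ranked 3 for this share. Chromosome Y (66.7%, 6 peaks) and chromosome 21 (34.3%) were higher, and chromosomes 14 and 18 (both 33.0%) came just below. The densities of chromosomes 14, 18 and 21 were only 2.68, 1.38 and 2.68 peaks per Mb. A high share in runs was thus not particular to chromosome 19. Peaks of 1 run can be parts of 1 bound region, so they are not independent and the intervals are too narrow. The intervals therefore decide no difference between chromosomes.

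Most runs were pairs: 31 of 40 on chromosome 17, 57 of 70 on chromosome 19 and all 22 on chromosome 22. Of the 22 pairs on chromosome 22, 19 had a gap of at most 1 kb, the shortest pairs being chr22:29663200-29663749 and chr22:42610350-42610899, each 550 bp from end to end. Chromosome 17 had 9 runs of 3 peaks, from 850 bp in length (chr17:4487800-4488649) to 16900 bp (chr17:7138000-7154899). Chromosome 19 had 11 runs of 3, 1 of 4 and 1 of 6 peaks, and these last 2 were among 11 runs of 4 or more in the whole list, where the largest held 8.

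The run of 6 on chromosome 19 covered chr19:54170250-54197299, a length of 27050 bp in the window between 54 and 55 Mb. Its peaks were chr19:54170250-54170499, chr19:54176450-54176649, chr19:54183200-54183499, chr19:54185550-54185749, chr19:54194850-54195049 and chr19:54196850-54197299. The gaps between them were 5950, 6550, 2050, 9100 and 1800 bp, so none of them was a close pair. The run of 4, chr19:12901600-12918499, was made of a close pair with a gap of 950 bp followed by peaks after 9000 and 5600 bp, and its last peak was 500 bp wide.

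Joined over longer distances, these groups grew or gave way to others. At up to 25 kb the largest were the 8 peaks of chr17:7121400-7166149, the 7 peaks of chr19:54170250-54215499 and the 5 peaks of chr22:50964850-51002399. The first holds 2 of the runs of 3 on chromosome 17, and the second holds the run of 6 on chromosome 19. At up to 50 kb the largest on chromosome 19 was a group of 9 peaks over 198350 bp (chr19:6333600-6531949), and on chromosome 22 a group of 8 near the end of the chromosome (chr22:50920550-51067049), while on chromosome 17 the group of 8 stayed the largest.

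Peak width is the only value per peak that the list gives beside position, since it holds no score. Widths on the 3 chromosomes differed little from each other or from the rest. The mean was 237 bp on chromosome 17 (SD 92.9 over 346 peaks), 242 bp on chromosome 19 (SD 89.3 over 470 peaks) and 246 bp on chromosome 22 (SD 90.9 over 161 peaks), against 240.4 bp (SD 87.2 over 5489 peaks) on the other chromosomes. The median was 200 bp on chromosome 17 and 250 bp on the other 2. All widths are multiples of 50 bp, so these medians are 1 step apart. Together the members covered 235400 bp.

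Wide peaks were rare on the 3 chromosomes and elsewhere. Peaks of at least 400 bp made up 7.57% of the members (74 of 977, 95% Wilson interval 6.08 to 9.40%) and 7.20% on the other chromosomes (395 of 5489, 6.54 to 7.91%). At 500 bp or more the shares were 3.28% (32 of 977, 2.33 to 4.59%) and 2.20% (121 of 5489, 1.85 to 2.63%). The members' interval lay above the 2.20% of the other chromosomes, while the 2 intervals overlapped. Singly, the intervals of chromosome 17 (1.78 to 5.60%) and chromosome 19 (1.62 to 4.67%) included 2.20%. That of chromosome 22 (2.54 to 9.50%) did not, but it rests on 8 of 161 peaks. These intervals cover counting error only and take peaks as independent, so they decide no difference between chromosomes. The widest member was chr17:29248050-29248949 at 900 bp, where the widest of the whole list had 1000 bp. It was followed by chr17:6947600-6948299 at 700 bp, chr19:6768100-6768749 at 650 bp and chr22:51194350-51194949 at 600 bp. The peak chr17:5404900-5405449, at 550 bp, was the first by position of several of that width. Of these 5 peaks, only that at 6947600 stood in a run, 650 bp from its neighbour.

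**Figure D4:**
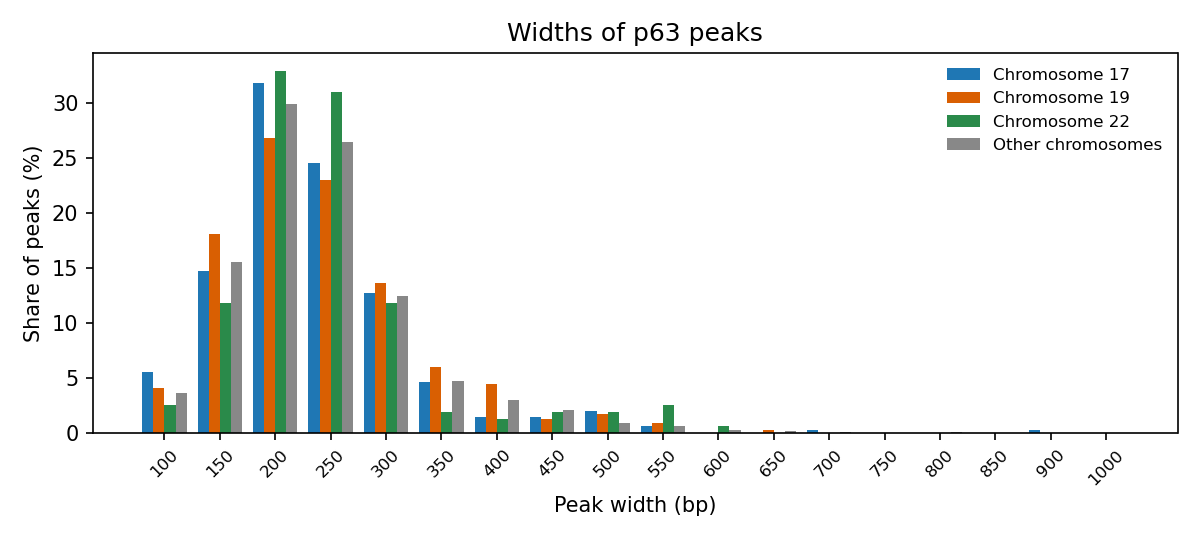
Share of p63 peaks in percent (vertical axis) by width in bp (horizontal axis, in the widths that occur) for chromosomes 17, 19 and 22 and the other chromosomes together. All 4 sets are highest at 200 bp and most of the rest lies at 150, 250 and 300 bp, with a single peak at 900 bp on chromosome 17.

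Peaks with a neighbour within 1 kb were not wider than the others. On chromosome 19 the 106 such peaks averaged 232 bp (SD 80.9) and the other 364 averaged 245 bp (SD 91.4). On chromosome 17 the means were 235 bp (SD 91.1, 55 peaks) and 237 bp (SD 93.4, 291 peaks), and on chromosome 22 they were 236 bp (SD 61.4, 38 peaks) and 249 bp (SD 98.2, 123 peaks). These differences are a fraction of the spread between peaks and less than 1 step of 50 bp. Peaks more than 1 Mb from any other were 2 on chromosome 17, 1 on chromosome 22 and 0 on chromosome 19.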

How the data were processed

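The authors deposited 1 peak list with chromosome, start and end for ME-180, without a score. The submitters' processing notes name the genome build hg19. The peak caller, its threshold, the use of the input and the sequencing depth are not given in the sources, and neither reads nor signal were used. After leaving out 1 comment line, the header and 1 further header line inside the list, 6466 peaks remained, with 0 duplicates and 0 overlapping neighbours. Positions lie on a grid of 50 bp, with the end 1 bp before a grid line in all 6466 peaks, so widths are end minus start plus 1. Coordinates are printed as deposited. Counts per RefSeq transcript, deposited by the authors for ME-180 control RNA, served only to read cell line markers, with the highest transcript per gene.

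Members were peaks on chromosomes 17, 19 and 22. The members, the windows and the settings were chosen with earlier results of these data known. Chromosome lengths and arms of hg19 were not used, so density is per Mb from the first to the last peak. No test was made across chromosomes, since 1 list has no replicates. The rule for peaks named singly took the 5 widest members, the largest runs and the peaks beside the longest gaps. Peaks inside dense windows, in short pairs and in chains of up to 25 or 50 kb were named after their values were seen. No gene was named for a peak, as the rule for named genes needs an annotation of hg19. Wilson intervals are at 95% and cover counting error only. Intervals of median gaps are also at 95% and were taken from the ranked gaps. Values were computed with Python 3.11.15, pandas 2.3.3, numpy 2.4.6 and scipy 1.17.1, and the functions for runs and windows were tested on simulated peaks. Alternatives were other run gaps, window sizes and offsets, wide peaks only, joined peaks, midpoint distances and spans without the longest gap.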

Additional observations from a re-analysis of the deposited data

How the results depend on the processing

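The order of density, with chromosome 19 first, then 22, then 17, was kept with wide peaks only, without the longest gap and with runs counted once. In each of these the length still began at the first peak and ended at the last. The order was not checked with whole chromosome lengths. Without the 3 densest windows of each chromosome, 17 came before 22. Using only peaks of at least the median width (250 bp) removes peaks by construction: density was then 2.06 per Mb on chromosome 17, 4.07 on 19 and 2.44 on 22, and the median gap 223400, 107100 and 198500 bp. The median gap of chromosome 17 was then longer than that of chromosome 22, the reverse of the order with all peaks. Using only these wide peaks also turned the ratio of high to low side on chromosome 17 from 0.945 to 1.13. The cause was not tested. The share of peaks in runs follows the gap that joins them. On chromosomes 17, 19 and 22 it was 20.8, 29.8 and 26.1% at 5 kb. At 25 kb it was 37.0, 47.9 and 38.5%, and at 50 kb 53.5, 67.0 and 54.0%. Smaller or larger windows hold fewer or more peaks by construction. The densest held 14 on chromosome 19 and 8 on 22 at 500 kb, and 36 and 21 at 2 Mb. With runs counted once, that of chromosome 19 held 15. At 2 Mb, the densest window of chromosome 17 moved to 72 to 74 Mb, with 20 peaks, and that of chromosome 22, from 38 to 40 Mb, held 1 of its 2 windows tied at 13. Depth is unknown, so neither missed sites nor false ones can be estimated. No paired analysis was possible because 1 ChIP library has no replicate.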
